A study of Mus musculus with 4 samples.

Results

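The ectodysplasin pathway genes are the 5 genes Eda, Edar, Edaradd, Tnfrsf19 and Traf6, taken by their symbols from the 32285 gene rows of each of the 4 count tables, and all 5 had a row. The study profiled molar tooth organs of wild-type mice (genotype label WTB6, a C57BL/6J background) by single-cell RNA sequencing. The 4 groups were molars of the upper (maxillary) and lower (mandibular) jaw at E15.5, counted in days of gestation, and at P1, the day after birth, when the enamel-forming and dentin-forming cells differentiate. The protocol gives the embryonic stage as E15.5 and the age label as E15. Each group was 1 library made from 6 pooled tooth organs, no group carried a deletion or a treatment, and there were no replicates.

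Ectodysplasin is a ligand of the tumour necrosis factor family that is made as a membrane protein and released from the cell by furin. It binds the receptor Edar, which recruits the adaptor Edaradd, and Edaradd passes the signal through TRAF proteins and the TAK1 and IKK kinases to NF-kB. In the tooth germ the receptor is known from the enamel knots, the epithelial signalling centres that shape the cusps, and loss of the ligand, the receptor or the adaptor causes hypohidrotic ectodermal dysplasia, with missing or misshapen teeth. Tnfrsf19, also called Troy, is a receptor of the same family related to Edar, and Traf6 is an adaptor shared with many other receptors of the immune system and of bone.

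After barcodes with under 1000 UMIs were left out, the E15.5 maxillary library held 10073 cells with a median of 9596 UMIs, where a UMI marks 1 captured RNA molecule. The E15.5 mandibular library held 6911 cells with a median of 11234, the P1 maxillary library 17040 with a median of 4019 and the P1 mandibular library 10120 with a median of 10390. The P1 libraries shared 7131 barcodes, 38.1% and 36.8% of the deposited maxillary and mandibular barcodes, against 28 to 70 in any other pair of libraries. The shared barcodes were kept in the P1 maxillary library, where they held a median of 12089 UMIs, and left out of the mandibular library, where their copies held a median of 2964. Hand2, a transcription factor gene of the mandibular mesenchyme, stood at 0.40 and 0.70 UMIs per 1000000 UMIs (CPM) in the shared barcodes of the maxillary and mandibular library, and at 5.84 CPM in the other mandibular cells.

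The pathway genes read alike in both copies of the shared barcodes. Eda stood at 158 and 157 CPM in the maxillary and mandibular copy, Edar at 3.99 and 3.53, and Tnfrsf19 at 80.4 and 81.0. The 9911 P1 maxillary cells outside the shared barcodes held a median of 2545 UMIs and were lower in Edaradd, at 5.88 against 13.9 CPM in the shared cells, and in Tnfrsf19, at 34.2 against 80.4 CPM. Each P1 maxillary value below therefore rests on both kinds of cells. Without the shared barcodes, the P1 maxillary log2 ratios of epithelium over mesenchyme, a comparison described below, were -0.80 for Eda, 2.67 for Edar, 2.71 for Edaradd, 0.31 for Tnfrsf19 and 0.20 for Traf6.

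On the mouse genome build mm10, Eda lies on chromosome X from 99975606 to 100400762 on the plus strand and spans 425.2 kb, of which 1.61% is exon. It overlaps Gm14832, Gm14829, Gm14828 and Mir676 on the same strand, so reads in those stretches could belong to either gene. Edar lies on chromosome 10 from 58600789 to 58675654, Edaradd on chromosome 13 from 12472632 to 12520438 and Tnfrsf19 on chromosome 14 from 60963875 to 61046490, all on the minus strand, and Traf6 on chromosome 2 from 101678429 to 101701669 on the plus strand. A gene on the opposite strand, Gm41168, overlaps Tnfrsf19. The counts come from the 3′ end of transcripts and do not separate the splice forms of the ligand, which differ in the receptor they bind.

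The 250 bases before the start of Eda, Edar and Edaradd are shown because the ligand was found in epithelium and mesenchyme alike while the receptor and its adaptor were read almost only in epithelium. They are RefSeq sequences of the build GRCm38.p6, on the strand of the gene, at chrX:99975356-99975605, chr10:58675697-58675946 and chr13:12520451-12520700. Capitals mark the letters GGGCGG (the GC box) in Eda, CTTTGA in Edar and CTTTGT in Edaradd, the last 2 being cores of the Tcf/Lef motif, each on either strand.
Eda: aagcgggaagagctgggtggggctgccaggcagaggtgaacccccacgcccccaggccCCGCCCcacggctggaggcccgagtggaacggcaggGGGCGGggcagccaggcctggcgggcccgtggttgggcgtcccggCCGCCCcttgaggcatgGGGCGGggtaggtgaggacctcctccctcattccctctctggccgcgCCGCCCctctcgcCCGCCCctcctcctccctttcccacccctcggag
Edar: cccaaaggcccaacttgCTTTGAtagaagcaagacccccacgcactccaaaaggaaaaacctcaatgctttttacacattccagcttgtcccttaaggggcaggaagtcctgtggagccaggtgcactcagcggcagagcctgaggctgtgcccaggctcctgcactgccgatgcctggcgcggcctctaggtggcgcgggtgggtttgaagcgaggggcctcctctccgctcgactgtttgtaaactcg
Edaradd: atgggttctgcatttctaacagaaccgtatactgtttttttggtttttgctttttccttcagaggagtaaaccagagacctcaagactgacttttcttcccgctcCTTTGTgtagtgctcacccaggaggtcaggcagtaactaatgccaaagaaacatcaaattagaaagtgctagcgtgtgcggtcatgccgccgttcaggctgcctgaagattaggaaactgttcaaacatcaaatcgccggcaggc
The Eda window held 6 matches of GGGCGG, 19 CpG dinucleotides and 75.6% G and C. The Edar window held 11 CpG and 58.8% G and C, and the Edaradd window 8 and 46%. Over all windows the medians were 6 CpG and 52.4% G and C, and 19.7% of windows held at least as many CpG as that of Eda. Edar had 1 match of CTTTGA and Edaradd 1 of CTTTGT, letters that 13.8% and 16.5% of the 32851 windows of the same length also held, while GGGCGG was in 32.7%. CTTTGT was also found once in the window of Traf6, which was read in both tissues, and of the windows before the 2 starts listed for Tnfrsf19 one held CTTTGA and the other held neither motif. GGGCGG was found 2 times in the window of Traf6 and 3 times in 1 of the 2 windows of Tnfrsf19. TATAAA, in 12.4% of windows, was in none of the members' windows. A match of these letters is a description of the sequence and not a bound site.

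Cells were clustered within each library and named from marker genes, and the names carry the ending "-like", left out below for the main classes, because they were rebuilt from the counts. Epithelium-like cells numbered 848 and 126 in the maxillary and mandibular library at E15.5 and 2718 and 2473 at P1, and mesenchyme-like cells 5590, 3106, 9441 and 5228. The 12 epithelial markers, among them Krt5, Krt14 and Epcam, summed to between 6505 and 11562 CPM in the epithelium and to between 23.8 and 138 CPM in the mesenchyme. The 11 mesenchymal markers, led by collagen genes, summed to between 10523 and 18331 CPM in the mesenchyme and to between 454 and 781 CPM in the epithelium.

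The libraries held more than tooth. At E15.5 the dental epithelium-like cells were 66 of the 848 maxillary epithelial cells (7.78%) and 42 of the 126 mandibular ones (33.3%), and basal oral epithelium-like cells made up 56.3% of the maxillary epithelium. At P1 the dental groups together, which are dental epithelium, outer dental epithelium, stellate reticulum with stratum intermedium, and the ameloblast lineage, made up 46.5% and 75.1% of the epithelium in the maxillary and mandibular library. The P1 maxillary library also held 405 nasal or olfactory epithelium-like cells, 807 neuron-like cells and an unnamed cluster of 365 cells led by Pomc and Gh, hormone genes of the pituitary. A level of a gene in a class below is the sum of its UMIs per 1000000 UMIs of the class (CPM), and brackets hold exact 95% intervals, Poisson for levels and binomial for ratios and shares, which cover counting error only. With 1 library per group no test between groups was made, the tissues were compared within each library, and a ratio is called past 2-fold where it and the whole interval lie on the same side of 0 on the log2 scale and the ratio is 2-fold or more.

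The first question was in which tissue each gene of the pathway is read. Edar and Edaradd were genes of the epithelium in every library, Tnfrsf19 was higher in the epithelium in all 4 libraries and past 2-fold in 3 of them, and Eda and Traf6 were read in both whole tissues at levels within 2-fold of each other. With the dental epithelium-like cells of E15.5 alone, Eda was past 2-fold lower than in the mesenchyme in both jaws. Traf6 was then past 2-fold higher in the mandibular one. With the whole epithelium, 2 of the 5 genes passed 2-fold in the E15.5 maxillary library, where 25.4% of 10506 genes with at least 10 CPM did, and 3 in the E15.5 mandibular library, against 26.6% of genes. At P1, 3 of the 5 passed in each jaw, against 24.4% and 24.9% of genes. All of these, 11 of 20 ratios, were higher in the epithelium, a direction in which 10.1%, 12.0%, 11.6% and 10.0% of genes passed in the 4 libraries in turn.

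**Figure D1:**
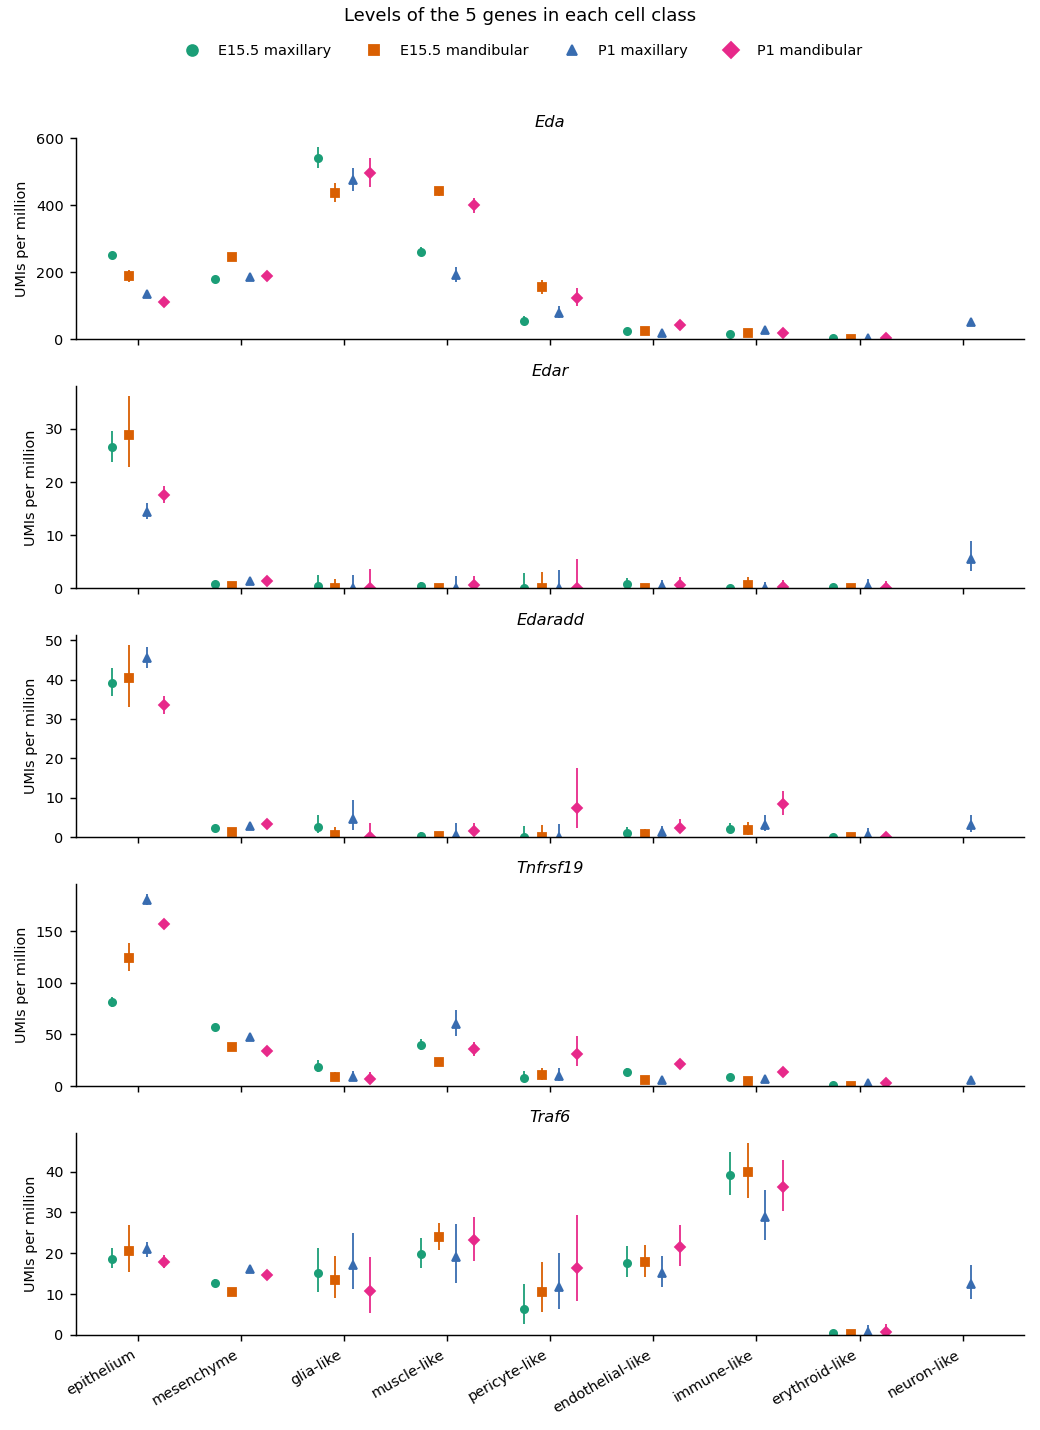
Level (CPM, vertical axis) of each of the 5 genes, a panel each, in the classes of cells, with a symbol for each of the 4 libraries and bars for exact 95% Poisson intervals. Edar and Edaradd are highest in the epithelium of each library, with 5.58 CPM or less of Edar and 8.33 CPM or less of Edaradd in the other named classes. Eda is highest in glia-like and muscle-like cells and is read in epithelium and mesenchyme alike. In the maxillary libraries the muscle-like interval of Eda overlaps that of the epithelium at E15.5 and that of the mesenchyme at P1.

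Edar, the receptor, stood at 26.5 [23.7 to 29.6] and 28.9 [22.8 to 36.2] CPM in the epithelium of the maxillary and mandibular molar at E15.5 and at 14.4 [13.0 to 16.0] and 17.5 [16.0 to 19.2] CPM at P1. In the mesenchyme of the same libraries it stood at 0.78, 0.41, 1.32 and 1.34 CPM, in the same order. The epithelial and mesenchymal intervals were far apart in every library, and the log2 ratios of epithelium over mesenchyme were 5.09 [4.64 to 5.56], 6.15 [5.40 to 6.98], 3.45 [3.13 to 3.79] and 3.70 [3.38 to 4.04]. A UMI of Edar was found in 18.0%, 19.8%, 7.21% and 7.16% of epithelial cells, and in 0.72%, 0.45%, 0.93% and 1.40% of mesenchymal cells. Immune-like cells, which should lack the gene, had a UMI of Edar in 0.00%, 0.34%, 0.00% and 0.28% of cells, at median depths of 9299, 10619, 2967 and 8856 UMIs against 11927, 12906.5, 5688.5 and 9771 in the epithelium. The counts of 0 of 493 and 0 of 578 immune-like cells allow shares of cells with a UMI of up to 0.609% and 0.519%, taken as 3 counts of the total, and their exact intervals reach 0.745% and 0.636%. After every cell was thinned to 2000 UMIs, the mesenchymal shares were 0.15%, 0.00%, 0.29% and 0.29%, with intervals that overlapped those of the immune-like cells. The epithelial shares after thinning were 5.93%, 2.68%, 2.48% and 2.91%, above the immune-like intervals in 3 libraries and overlapping them in the E15.5 mandibular library, where 3 of 112 thinned epithelial cells had a UMI.

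Among the named classes outside the epithelium, the level of Edar farthest from 0 was in the neuron-like cells of the P1 maxillary library, at 5.58 [3.25 to 8.93] CPM from 17 UMIs. The 12 epithelial markers summed to 1168 CPM in these cells, led by Epcam at 570 CPM, and their part in the Edar level was not tested. They summed to 29.0 to 242 CPM in the other named classes outside the epithelium of that library. For Edar, all other named classes outside the epithelium lay at or below 1.34 CPM and their intervals overlapped their neighbours' in order within each library. The mixed and unnamed clusters, which were left out of that order, reached 5.95 [4.10 to 8.36] CPM in the mixed cells of the E15.5 maxillary and 4.08 [2.42 to 6.45] CPM in the unnamed cells of the P1 maxillary library. The mixed cells of those libraries stood at 15.2 and 34.3 CPM in Edaradd.

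Edaradd, the adaptor of the receptor, stood at 39.2 [35.8 to 42.8] and 40.3 [33.0 to 48.8] CPM in the epithelium at E15.5 and at 45.5 [42.9 to 48.3] and 33.5 [31.4 to 35.7] CPM at P1, maxillary before mandibular. In the mesenchyme it stood at 2.41, 1.35, 2.86 and 3.22 CPM. The log2 ratios were 4.02 [3.75 to 4.30], 4.90 [4.43 to 5.38], 3.99 [3.78 to 4.21] and 3.38 [3.16 to 3.60], all past 2-fold. Receptor and adaptor thus shared their tissue in all 4 libraries. Immune-like cells had Edaradd at 2.02, 1.72, 3.10 and 8.33 CPM, the source of which was not tested. These levels in 3 libraries overlapped the mesenchymal intervals and in the P1 mandibular library lay above the mesenchymal level.

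Eda, the ligand, stood at 252 [243 to 261] and 188 [172 to 206] CPM in the epithelium at E15.5 and at 136 [131 to 141] and 112 [108 to 116] CPM at P1. In the mesenchyme it stood at 181 [178 to 184], 245 [240 to 250], 186 [183 to 189] and 188 [185 to 191] CPM. The epithelium was the higher tissue in the E15.5 maxillary library, at a log2 ratio of 0.48 [0.42 to 0.54], and the lower one in the E15.5 mandibular, P1 maxillary and P1 mandibular libraries, at -0.38 [-0.51 to -0.25], -0.45 [-0.51 to -0.40] and -0.74 [-0.80 to -0.69]. None passed 2-fold. With only the dental epithelium-like cells at E15.5, the ratios were -1.60 and -2.17, maxillary before mandibular, both past 2-fold. The P1 ratios with the dental groups alone were -0.33 and -0.75.

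Among the whole named classes, the highest in Eda was neither the epithelium nor the mesenchyme. Glia-like cells stood at 542 [513 to 573], 438 [410 to 467], 475 [441 to 511] and 496 [454 to 541] CPM, and muscle-like cells at 261, 441, 192 and 399.6 CPM. Glia-like cells came before muscle-like cells in every library but the E15.5 mandibular one, where their intervals overlapped. Endothelial-like cells stood between 19.7 and 43.9 CPM, immune-like cells between 16.7 and 27.6 CPM and erythroid-like cells between 1.96 and 3.55 CPM. Eda is the longest of the 5 genes, and genes over 200 kb took 9.94% to 10.99% of the UMIs of glia-like cells against 6.85% to 8.43% in the epithelium and 8.59% to 10.8% in the mesenchyme. Scaled to the UMIs of genes over 200 kb, the log2 ratios of epithelium over mesenchyme were 1.02, -0.05, -0.05 and -0.55. The part of unspliced RNA in these counts was not tested, and whether reads in introns were counted is not given in the sources used here.

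Tnfrsf19, the receptor related to Edar, stood at 81.3 [76.4 to 86.5] and 124 [111 to 138] CPM in the epithelium at E15.5 and at 180.5 [175 to 186] and 157 [152 to 162] CPM at P1. The mesenchyme stood at 57.1, 37.8, 47.4 and 34.0 CPM. The log2 ratios were 0.51 [0.41 to 0.61], 1.71 [1.54 to 1.89], 1.93 [1.87 to 1.99] and 2.21 [2.14 to 2.28], past 2-fold in all but the E15.5 maxillary library. Without the shared barcodes the P1 maxillary ratio was 0.31 and no longer past 2-fold. With the dental epithelium-like cells alone, the E15.5 maxillary ratio was 3.52. In the mesenchyme of the 3 libraries with osteoblast-like cells the gene stood higher in these than in the dental papilla-like cells, at 165 [151 to 179] CPM in the E15.5 mandibular and at 135 [120 to 151] and 142 [129 to 157] CPM in the P1 libraries, against 25.6, 39.5 and 37.3 CPM. The E15.5 maxillary library held no osteoblast-like group, and there cartilage-like cells stood at 80.7 [72.5 to 89.6] CPM and dental papilla-like cells at 36.9 CPM.

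Traf6, the shared adaptor, lay within 2-fold between the whole tissues in every library. It stood at 18.7, 20.5, 20.9 and 17.9 CPM in the epithelium and at 12.8, 10.6, 16.3 and 14.6 CPM in the mesenchyme. The epithelium was the higher tissue in 4 of 4 libraries, at log2 ratios of 0.55, 0.96, 0.37 and 0.29, none past 2-fold. In the dental epithelium-like cells of E15.5 alone Traf6 stood at 17.9 CPM in the maxillary library. In the mandibular one it stood at 25.7 [15.3 to 40.7] CPM, from 18 UMIs, past 2-fold over the mesenchyme. Immune-like cells were the highest class in each library, at 39.2, 39.8, 28.9 and 36.2 CPM.

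**Figure D2:**
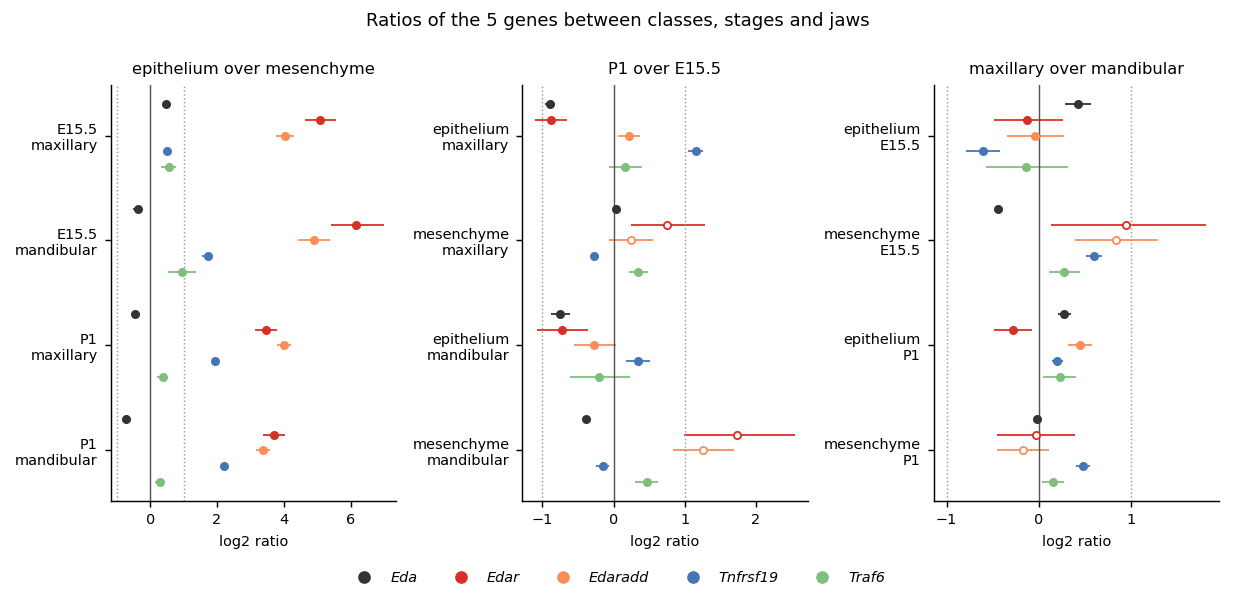
Log2 ratios of the 5 genes, in 3 panels for epithelium over mesenchyme, P1 over E15.5 and maxillary over mandibular, with exact 95% binomial intervals, dotted lines at 2-fold and open symbols for genes under 10 CPM on both sides. In the panel of tissues 11 of 20 ratios lie past 2-fold, in that of stages 1 filled symbol (Tnfrsf19 in the maxillary epithelium) and in that of jaws none.

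The epithelium was then taken apart into the groups named from markers. In the dental epithelium-like cells of E15.5, Edaradd and Tnfrsf19 stood at their highest levels among the epithelial groups in both jaws, Edar in the maxillary jaw, and Eda at a low one. At P1 the ligand stood highest in outer dental epithelium-like cells, and the ameloblast lineage, the enamel-forming cells, was low in all 4 of Eda, Edar, Edaradd and Tnfrsf19.

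**Figure D3:**
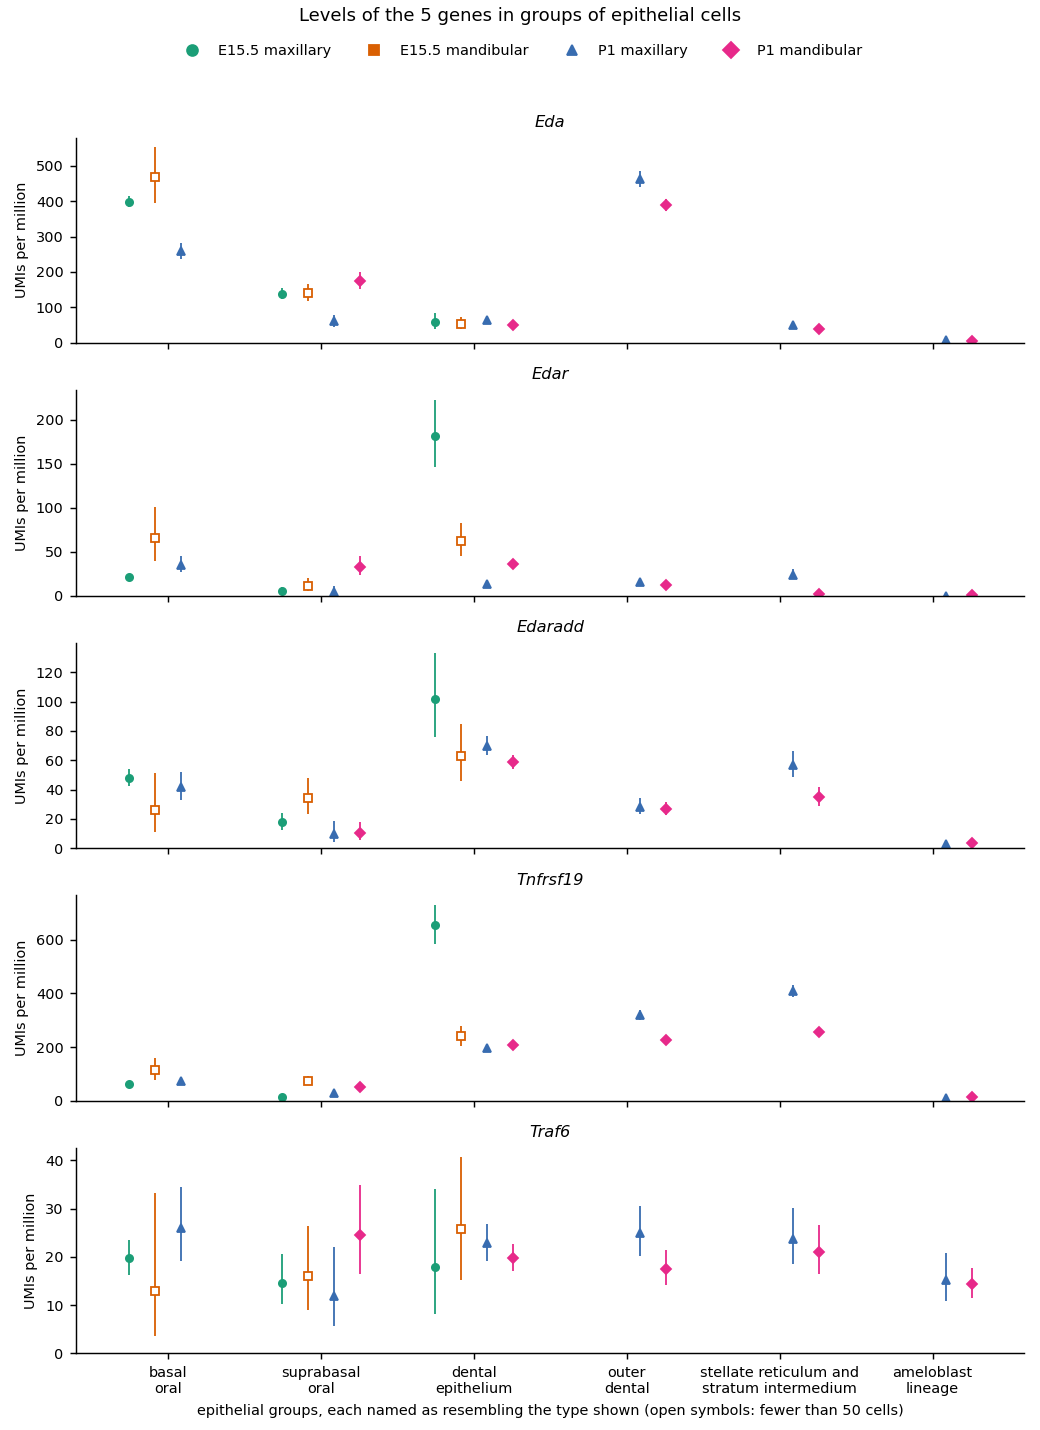
Level (CPM, vertical axis) of the 5 genes in 6 groups of epithelial cells, with a symbol per library, open where a group held under 50 cells, and exact 95% Poisson intervals. Edar and Tnfrsf19 are highest in dental epithelium-like cells of the E15.5 maxillary library, Eda in outer dental and basal oral epithelium-like cells, and the ameloblast lineage-like cells are low in all but Traf6.

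Edar stood at 181 [146 to 222] CPM in the 66 dental epithelium-like cells of the E15.5 maxillary library and at 61.5 [44.5 to 82.8] CPM in the 42 of the mandibular one, where 25 basal oral epithelium-like cells stood at 65.0 CPM. At P1 the dental epithelium-like cells stood at 12.8 [10.1 to 15.9] and 36.3 [32.7 to 40.3] CPM, the outer dental epithelium-like cells at 15.2 and 11.9 CPM, and the stellate reticulum and stratum intermedium-like cells at 23.8 and 1.48 CPM. Outside these groups the P1 maxillary library held 120 epithelial cells without a finer name, at 47.0 CPM. In the P1 maxillary library 231 basal oral epithelium-like cells stood above every dental group, at 35.2 [27.1 to 44.8] CPM. Their interval overlapped that of the stellate reticulum and stratum intermedium-like cells, 18.5 to 30.1 CPM. The ameloblast lineage-like cells held 0 and 4 UMIs of Edar in 181 and 486 cells, levels of 0 [0 to 1.41] and 0.69 [0.19 to 1.77] CPM. The receptor was thus high in the dental cells of E15.5 and low in the ameloblast lineage-like cells of P1. The group of 66 cells was led by Ntm, Shh, Stac and Dach1 and had a median of 4190 UMIs, the lowest among the epithelial groups of its library.

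Edaradd stood at 101 [75.5 to 133] and 62.9 [45.7 to 84.5] CPM in the same dental groups at E15.5 and at 69.7 and 58.7 CPM at P1. Outer dental epithelium-like cells stood at 28.2 and 26.8 CPM, stellate reticulum and stratum intermedium-like cells at 56.9 and 35.0 CPM, and ameloblast lineage-like cells at 2.68 and 3.63 CPM. Its order over the 4 dental groups of P1, by level alone, was the same in both jaws, with the dental epithelium-like cells at the top and the ameloblast lineage at the bottom. Outside these groups, the 120 P1 maxillary epithelial cells without a finer name stood higher, at 210.4 CPM.

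Tnfrsf19 stood at 654 [586 to 729] and 240.2 [205 to 279] CPM in the dental epithelium-like cells of E15.5 and at 198 and 207 CPM in those of P1. At P1 it was higher in the stellate reticulum and stratum intermedium-like cells, the layers beside the enamel-forming cells, at 408 [385 to 432] and 257 [240 to 275] CPM, and in the outer dental epithelium-like cells, at 319.5 and 227 CPM. Ameloblast lineage-like cells stood at 11.1 and 12.4 CPM. The intervals of the outer dental and stellate reticulum groups did not overlap in the maxillary library and met at their ends in the mandibular one.

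Eda stood at 59.7 [40.3 to 85.2] and 54.3 [38.4 to 74.6] CPM in the dental epithelium-like cells of E15.5 and at 63.5 and 51.5 CPM in those of P1. Outer dental epithelium-like cells of P1 stood at 461 [440 to 483] and 389 [373 to 407] CPM, and ameloblast lineage-like cells at 8.04 and 5.88 CPM. Basal oral epithelium-like cells stood at 399 [383 to 415] CPM in the E15.5 maxillary, 468 CPM in the 25 cells of the E15.5 mandibular and 259 CPM in the P1 maxillary library. Suprabasal oral epithelium-like cells stood at 139, 140.5, 61.0 and 176 CPM in the 4 libraries. The ligand was thus higher in the outer dental and basal oral groups than in the dental epithelium-like cells, with intervals apart, while the suprabasal group of the P1 maxillary library overlapped the dental one. In the mesenchyme of P1, odontoblast-like cells were low in Eda, at 23.7 and 16.7 CPM, against 133 and 105 CPM in dental papilla-like cells.

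Finer subclusters of the epithelium, 14 and 6 at E15.5 and 18 and 17 at P1, spread these levels further. Eda ran from 31.2 to 1277 CPM over the E15.5 maxillary subclusters and from 35.9 to 468 over the E15.5 mandibular ones. It ran from 8.04 to 1238 over the P1 maxillary and from 4.01 to 777 over the P1 mandibular ones. The subcluster of 1238 CPM held 100 outer dental epithelium-like cells and that of 777 CPM 161, and Adamts3 and Fat2 were among the leading genes of both. That of 1277 CPM held 49 cells named basal oral epithelium-like, and Cadm2 and Cntn5 were among its leading genes and those of the 1238 CPM subcluster. Edar was highest in the 66 cells described above at E15.5 maxillary, in 18 dental epithelium-like cells at 98.5 CPM at E15.5 mandibular and in 217 dental epithelium-like cells at 131 CPM at P1 mandibular, led by Kif26b, Dab1 and Megf11 and with Fgf9 among the leading genes. At P1 maxillary the highest subcluster, at 47.0 CPM, held 120 epithelial cells without a finer name, and its leading genes included the mast cell genes Mcpt4, Cma1 and Tpsb2, whose part in its levels was not tested. Kif26b, Tafa1, Frem1 and Hs6st3 were also among them, and were leading genes of the P1 mandibular subcluster of 131 CPM as well.

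In the subcluster highest in Edar, Eda lay below the level of the whole epithelium in 4 of 4 libraries, at 59.7, 71.1, 53.0 and 32.4 CPM. The median subcluster of each library stood at 170, 192, 63.4 and 35.7 CPM of Eda, so the P1 values were close to that of a median subcluster. Edaradd lay above the level of the whole epithelium in 4 of 4, at 101, 65.7, 210.4 and 139.6 CPM, and Tnfrsf19 in 4 of 4, at 654, 405, 348 and 266 CPM. In the subcluster highest in Eda, Edaradd lay below the level of the whole epithelium in 4 of 4 libraries, while Edar lay above it in 3 of 4. The Edaradd levels were 38.6, 26.0, 12.6 and 27.7 CPM, against 39.2, 40.3, 45.5 and 33.5 CPM in the whole epithelium. At E15.5 the maxillary levels were thus close to equal. The mandibular level rested on 8 UMIs, and its interval of 11.2 to 51.3 CPM held the level of the whole epithelium. The subclusters were picked by these levels, so the counts are a description.

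**Figure D4:**
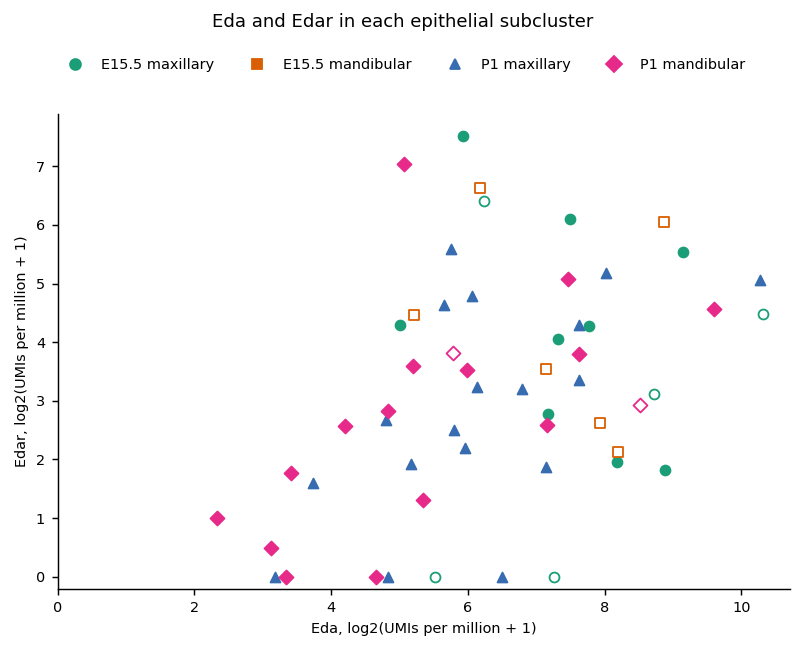
Level of Edar against level of Eda, both as log2(CPM + 1), in the subclusters of the epithelium of each library, with open symbols for subclusters of under 50 cells. The subclusters with the highest Edar, such as 131 CPM in the P1 mandibular library, have Eda below the level of the whole epithelium, and those with the highest Eda, such as 1238 CPM in the P1 maxillary library, have Edar at 21.4 to 65.0 CPM, above the level of the whole epithelium in 3 of 4 libraries. The median subcluster, at 170, 192, 63.4 and 35.7 CPM of Eda, also lies below the whole epithelium in all but the E15.5 mandibular library.

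The second question was how the levels differed between the stages. Within the maxillary epithelium 1 of the 5 genes passed 2-fold, against 13.7% of 10201 genes, and within the mandibular epithelium 0 of 5, against 15.4% of genes. In the mesenchyme 3 genes reached 10 CPM, of which 0 passed in the maxillary and 0 in the mandibular molar, against 9.46% and 9.96% of genes. Tnfrsf19 was the gene that passed, higher at P1, at 180.5 against 81.3 CPM, a log2 ratio of 1.15 [1.05 to 1.25]. Its ratio was 0.34 [0.18 to 0.51] in the mandibular epithelium, and -0.27 and -0.15 in the maxillary and mandibular mesenchyme. The maxillary epithelial ratio depended on the cells taken as epithelium. The dental groups were 7.78% of it at E15.5 and 46.5% at P1, and 83.6% of the P1 dental groups' cells were shared barcodes. Without the shared barcodes the ratio turned to -0.58, from 54.4 CPM at P1, and with the dental groups alone it turned to -1.48, from 235 against 654 CPM.

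Eda was lower at P1 in the epithelium of both jaws without passing 2-fold, at -0.89 [-0.96 to -0.82] in the maxillary and -0.75 [-0.88 to -0.61] in the mandibular molar. In the mesenchyme its ratios were 0.04 [0.00 to 0.08] and -0.38 [-0.42 to -0.35]. Over cells thinned to the same depth, which also weighs each cell alike, the epithelial ratios were -1.32 and -1.34, past 2-fold. With the dental groups alone they turned to 1.31 and 1.04, and the outer dental epithelium-like cells high in Eda were a named group at P1 only. The E15.5 maxillary subcluster of 49 cells at 1277 CPM was named basal oral epithelium-like and so lay outside the dental groups. The direction of the stage difference of the ligand in the epithelium thus depended on the cells compared.

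Edar was likewise lower at P1 in the epithelium, at -0.88 [-1.10 to -0.66] and -0.72 [-1.07 to -0.35], without passing 2-fold. With the dental groups alone it stood at 13.3 against 181 CPM in the maxillary molar and 17.6 against 61.5 CPM in the mandibular one, log2 ratios of -3.77 and -1.80. The dental groups left out the P1 maxillary subcluster highest in Edar, 120 epithelial cells at 47.0 CPM without a finer name. Without the shared barcodes the maxillary ratio in the whole epithelium was -1.55, from 9.09 CPM at P1, past 2-fold. The receptor was lower at P1 under both choices of cells in both jaws, and the thinned mandibular ratio of 1.02 rests on 108 UMIs at P1 and 3 at E15.5. In the mesenchyme Edar and Edaradd were higher at P1 in the mandibular molar, at 1.73 and 1.25, at P1 levels of 1.34 and 3.22 CPM beside 0.26 and 8.33 CPM in the immune-like cells. The summed level of the 12 epithelial markers in the same mesenchyme also moved, from 23.8 CPM in the embryo to 138 CPM after birth, and its part in these ratios was not tested.

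Edaradd did not pass 2-fold between the stages in the whole epithelium, at 0.22 [0.06 to 0.37] in the maxillary and -0.27 [-0.56 to 0.04] in the mandibular epithelium, and with the dental groups alone it stood at -1.14 [-1.55 to -0.70], past 2-fold and lower at P1, and at -0.84 [-1.27 to -0.36]. Without the shared barcodes the maxillary ratio was -0.96, from 20.1 CPM at P1. Traf6 stood at 0.16 and -0.20 in the epithelium, with both intervals reaching across 0, and at 0.35 and 0.47 in the mesenchyme.

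**Figure D5:**
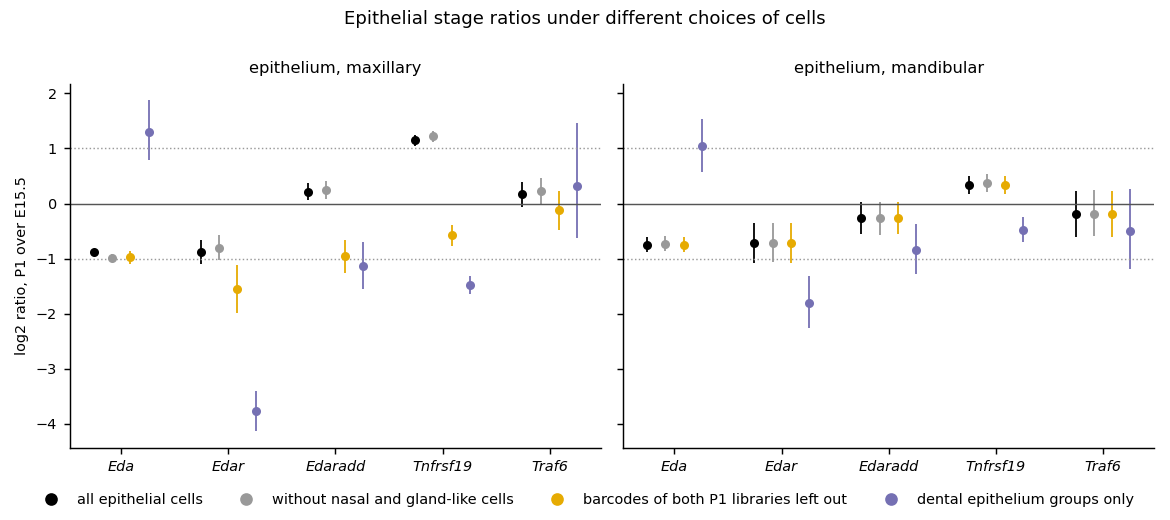
Log2 ratio of P1 over E15.5 in the epithelium for the 5 genes, maxillary and mandibular in a panel each, under 4 choices of cells, with exact 95% binomial intervals and dotted lines at 2-fold. Tnfrsf19 in the maxillary epithelium moves from 1.15 to -0.58 and -1.48, and Eda crosses 0 where the dental groups alone are compared. Edar lies below 0 under all 4 choices of cells in both panels.

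The third question was whether the jaws differed. None of the ratios of maxillary over mandibular passed 2-fold: 0 of 5 genes in the epithelium at E15.5 against 4.77% of 9783 genes, 0 of 5 in the epithelium at P1 against 5.21%, and 0 of 3 in the mesenchyme at E15.5 and at P1 against 4.04% and 2.71%. Eda was 0.42 [0.28 to 0.56] higher on the log2 scale in the maxillary epithelium at E15.5 and -0.44 [-0.48 to -0.40] in the mesenchyme. Tnfrsf19 had the largest epithelial ratio at E15.5, at -0.61 [-0.79 to -0.42], and ratios of 0.59 and 0.48 in the mesenchyme at E15.5 and P1. Edar stood at -0.12 [-0.49 to 0.26] and -0.28 [-0.48 to -0.08] in the epithelium. At P1 the jaws are not independent samples as far as the shared barcodes mix them, and without these the Tnfrsf19 ratio in the epithelium was -1.53, past 2-fold, the Edar ratio -0.95 and the Edaradd ratio -0.74. With the dental cells alone, Edar and Tnfrsf19 were past 2-fold in the maxillary direction at E15.5, at 1.56 and 1.45, from 66 and 42 cells.

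The other genes of the pathway, from lists of ligand processing, related receptors, adaptors, kinases, NF-kB subunits and inhibitors, were mostly within 2-fold between the tissues where they reached 10 CPM, and Eda2r, Relt, Tnfrsf11a, Traf1, Bcl3, Nfkbie and Tnfaip3 were under 10 CPM in both tissues of every library. Of 4 related receptors and processing genes with at least 10 CPM, Tnfrsf12a, a receptor of the same superfamily, was higher in the epithelium in every library, at log2 ratios of 1.16 to 1.86. Ngfr, the low-affinity neurotrophin receptor, was lower in every library, at -3.25 to -4.12, and Tnfrsf1a, a receptor of tumour necrosis factor, was lower past 2-fold in the P1 mandibular library. The list thus had 2, 2, 2 and 3 of 4 genes past 2-fold, where 25.4%, 26.6%, 24.4% and 24.9% of all genes passed in the 4 libraries in turn. Furin, the protease that releases the ligand, stood at 29.6 to 45.8 CPM in the epithelium and 24.0 to 25.8 CPM in the mesenchyme, within 2-fold. Eda2r, under 10 CPM as given above, is the receptor of the other splice form.

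Of the 6 adaptors and TAK1 complex genes tested, Traf3 passed 2-fold in the E15.5 maxillary library, at 75.5 against 35.1 CPM, and no other passed in any library, against the same shares of all genes. Of 7 IKK and NF-kB genes tested, 0 passed at E15.5, and Relb, a subunit of the non-canonical branch, was lower in the epithelium at P1, at 7.55 against 21.1 CPM in the maxillary and 7.61 against 19.2 CPM in the mandibular library. Relb was also lower at P1 than at E15.5 in the epithelium, at log2 ratios of -1.27 and -1.23, and so was Nfkb2, the other subunit of that branch, in the mandibular epithelium, at 5.19 against 10.7 CPM. These were 1 of 7 and 2 of 8 genes of the list, beside 13.7% and 15.4% of all genes. Of 3 inhibitors tested, Nfkbia, which holds NF-kB in the cytoplasm, passed in the E15.5 maxillary library alone, at 138 against 66.1 CPM. Beside all of these counts between the tissues, 25.4%, 26.6%, 24.4% and 24.9% of all genes passed in the 4 libraries in turn. The median log2 ratio of the IKK and NF-kB list over the 4 libraries in turn was 0.37, 0.61, 0.27 and 0.05, beside -0.01, 0.04, 0.09 and 0.04 over all genes tested.

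Genes described as responding to Edar in ectodermal organs stood on both sides. Of 17 listed, 16 had a row and 8 or 9 reached 10 CPM in each library, and Fgf20, Fgf4, Dkk4 and Foxi3 were among those that did not. At E15.5, 5 of 9 tested were higher and 2 lower in the maxillary epithelium than in the mesenchyme, and 3 and 2 of 8 in the mandibular one, and at P1 the counts were 2 and 4 of 8 and 2 and 3 of 8. Over all genes 1066 were higher and 1606 lower of 10506 at E15.5 maxillary, 1259 and 1522 of 10463 at E15.5 mandibular, 1248 and 1372 of 10750 at P1 maxillary and 1049 and 1552 of 10456 at P1 mandibular. Shh, the signal of the enamel knot, stood at 37.0, 142, 293 and 385 CPM in the epithelium and at 6.38 CPM or less in the mesenchyme. Fst, which encodes the activin antagonist follistatin, stood in the epithelium at 227 and 94.0 CPM in the embryo and at 31.9 and 26.8 CPM after birth, past 2-fold lower at P1 in both jaws. In the comparison of stages in the epithelium, 2 of 8 tested genes of the list were higher and 2 lower at P1 in the maxillary molar, and 3 of 7 higher and 1 lower in the mandibular one, where 13.7% and 15.4% of all genes passed in either direction. Shh and Bmp4 were the genes higher in both jaws, Wnt10a was higher in the mandibular and Wnt10b lower in the maxillary molar. In the comparison of tissues at E15.5, Bmp4 and Vcam1 were the genes lower in the epithelium. The list was put together from other organs, and its members respond to other signals as well.

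In the 66 dental epithelium-like cells high in Edar, Shh stood at 730.0 CPM, Lrp4 at 362 CPM, Wnt10b at 117 CPM, Dkk4 at 65.6 CPM, Fgf4 at 61.7 CPM and Fgf20 at 23.9 CPM. In the basal oral epithelium-like cells of the same library Shh stood at 7.6 CPM, Lrp4 at 73.7 CPM and Wnt10b at 9.7 CPM, with Dkk4 and Fgf4 at 0. In the 42 mandibular cells Shh stood at 500.4 CPM, Fgf4 at 24.3 CPM and Dkk4 at 10.0 CPM. At P1 Fgf4 and Dkk4 stood at 1.0 CPM or less in the dental epithelium-like cells of both jaws, while Shh stood at 489 and 641 CPM, and in the ameloblast lineage, with Edar at 0.69 CPM or less, Shh stood at 578 and 444 CPM. Within the dental epithelium-like cells Shh was thus lower at P1 in the maxillary and higher in the mandibular jaw, while in the whole epithelium it was higher at P1 in both.

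The genes whose levels over the 33 pairs of library and class most resembled each member were listed as a description, over 7801 genes, with libraries, depth and the epithelial class shared by the points. Eda was most like Sorcs2 (Pearson r of 0.96 on log2(CPM + 1)), Garem1 and Lgr4, and Edar was most like Cst6 (0.95), Cyp2f2 and Clic3. Edaradd was most like Nectin4 (0.93) and the desmosome genes Dsc3, Dsc2, Pkp1 and Dsp. Tnfrsf19 was most like Pfn2 (0.89), Frem1 and Fam13a.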

How the data were processed

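Single-cell suspensions of 6 pooled tooth organs per group were sequenced by the authors with a 10x Genomics 3′ kit, and the authors deposited 1 matrix of UMI counts per library, with 32285 genes, no normalization and 56940 barcodes in all. The matrix header names Cell Ranger 7.0.1 and the submitters' processing notes name mm10. Here barcodes with at least 1000 UMIs were kept, and of the shared P1 barcodes the maxillary copy, 44144 cells. Each library was clustered with scanpy 1.11.5 (2000 variable genes without the listed ones, 40 components, 15 neighbours, Leiden resolution 1.0), and clusters were named from marker lists. The naming rule was revised several times after clusters, and in exploratory listings levels of the 5 genes, had been seen. The members, markers and gene lists were chosen with earlier results of these data known. Scrublet's automatic threshold marked 2, 0, 0 and 0 barcodes and so did not work, doublets were kept, and removal by rank is an alternative.

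Levels are summed counts per 1000000. A count of 0 was set to 3 for a ratio. Comparisons across genes were limited to a level of 10 CPM or more on the higher side. Named genes were all listed genes and, for 4 members, the 5 with the highest Pearson r among genes of at least 50 CPM over classes of at least 50 cells. The ratio script was tested on simulated data. Positions come from GENCODE vM21 on mm10 and promoters from RefSeq. No tests were made: each group was 1 library, and the tissue ratios of the 4 libraries, which are 4 different groups, are given one by one.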

Additional observations from a re-analysis of the deposited data

Results flagged for a closer look

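Among ratios of genes with at least 10 CPM, 48 pairs of tissues, stages or jaws under the same contrast were compared, and 9 had ratios of a gene with whole intervals on opposite sides of 0, all for Eda or Tnfrsf19. Under that level, Edar for P1 over E15.5 also had such intervals, at -0.88 in the epithelium and 0.76 in the mesenchyme of the maxillary molar and at -0.72 and 1.73 in the mandibular one, beside epithelial markers in the mesenchyme that summed to 77.3 CPM in the embryo and 77.9 CPM after birth in the maxillary and to 23.8 and 138 CPM in the mandibular molar. The differences between the ratios were not tested, as each group was 1 library, and are given as differences of log2 ratios. The share of such pairs over all genes was not counted, and the intervals cover counting error only. The count of 9 of 48 is therefore a description. For Eda in epithelium over mesenchyme, the E15.5 maxillary ratio was 0.86 above the E15.5 mandibular one and 0.93 above the P1 maxillary one. For P1 over E15.5, the maxillary epithelial ratio of Eda was -0.93 from the mesenchymal one, and its maxillary mesenchymal ratio was 0.42 above the mandibular mesenchymal one. For Tnfrsf19 in P1 over E15.5, the epithelial ratio was 1.42 above the mesenchymal one in the maxillary molar and 0.49 above it in the mandibular molar. For maxillary over mandibular at E15.5, the epithelial ratio minus the mesenchymal one was 0.86 for Eda and -1.20 for Tnfrsf19, and the epithelial ratio of Tnfrsf19 at E15.5 minus that at P1 was -0.81.

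The 5 genes were also read in cells that no comparison used. In the 3171 cells of unnamed or mixed clusters Eda stood at 141 CPM, Edar at 2.40 CPM, Edaradd at 10.5 CPM, Tnfrsf19 at 42.2 CPM and Traf6 at 15.4 CPM, where a count of 0 would allow up to 0.0999 CPM. In the 6690 P1 mandibular copies of the shared barcodes Eda stood at 157 CPM, Edar at 3.53 CPM, Edaradd at 14.3 CPM, Tnfrsf19 at 81.0 CPM and Traf6 at 17.9 CPM, where a count of 0 would allow up to 0.131 CPM.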

How the results depend on the processing

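The count of ratios past 2-fold between epithelium and mesenchyme, 11 of 20, lay between 9 and 15 under the 14 alternatives. The count between stages, 1 of the 16 ratios with at least 10 CPM, was 3 after thinning to 2000 UMIs, 6 with the dental groups alone, 4 when scaled to the UMIs of genes over 200 kb and 3 without the filter on low values. The count between jaws, 0 of 16, was 1 after thinning, 1 without the shared barcodes and 2 with the dental groups alone, and 0 under the others. Without the filter on low values, 27.7% to 30.3% of all genes passed between the tissues. Between the stages 18.8% and 16.3% passed in the maxillary and mandibular epithelium and 15.2% and 15.8% in the mesenchyme. Between the jaws 6.58% to 11% passed. Shares of all genes under the other alternatives were not computed, so those counts are a description. The ratio of Tnfrsf19 for P1 over E15.5 in the maxillary epithelium reversed to -0.58 without the shared barcodes and to -1.48 with the dental groups alone, where the cells compared differ by construction, and no further cause was tested. Of 779 single ratios under the alternatives, 615 stayed within their counting interval. The other sign was taken by 35, of which 2 had been past 2-fold, the Tnfrsf19 ratios above, and 12 had intervals that left out 0 in both settings. Scaling by edgeR TMM factors (edgeR 4.0.16) moved every mandibular epithelial stage ratio up, that of Eda from -0.75 to -0.52. The 2000-UMI minimum, the stricter cell filter, doublet removal and thinning kept the clusters as named. The alternatives with dental cells, without nasal and gland-like cells, with mixed subclusters and with long genes were chosen after seeing the data. No paired analysis between stages or jaws was possible because each group was 1 library, so that no replicate number links the groups. The tissue ratios are pairs within a library, given for each, and a paired test over the 4 libraries was not made. The E15.5 mandibular epithelium rests on 126 cells, in groups of under 50 cells.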
